A study of Macaca fascicularis with 64 samples.

Results

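The genes described here are 8 that red cell precursors use to make heme and to build the red cell membrane: ALAS2, FECH, SLC4A1, EPB42, ANK1, KLF1, GATA1 and TFRC. They were taken by name from the 28141 genes listed in each of 2 expression tables, and all 8 were found in both. The question put to the data was whether erythropoiesis remaining in the newborn liver differed by genotype.

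RNA sequencing of cynomolgus monkey (Macaca fascicularis) tissue gave 64 libraries. In the newborn set, 2 animals labelled as SIRT6 mutant, titled KO2 and KO3, were set against 2 wild-type animals, WT2 and WT3. Each animal had 2 libraries of each of 7 tissues (liver, brain, muscle, thymus, heart, lung and kidney), 56 in all. The other 8 libraries were of wild-type fetal brain and muscle, at gestation month 2 or month 4, with 2 libraries per month and tissue. The design text gives the mutant genotype as SIRT6-/-, while the labels do not state the kind of mutation, the exact age of the newborns or their sex. SIRT6, a nuclear deacetylase of the sirtuin family, was at 3.07 FPKM in KO2, 6.87 in KO3, 6.18 in WT2 and 8.63 in WT3 liver, and passed the test in no tissue. These values do not check the labels, since a small deletion need not lower the transcript.

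Red cells of the primate fetus are made mainly in the liver for much of gestation, until the bone marrow takes over. An erythroid precursor matures under the transcription factors GATA1 and KLF1. It takes up iron through the transferrin receptor TFRC, makes heme in a pathway that ALAS2 opens and FECH closes, and loads its membrane with band 3 (SLC4A1), protein 4.2 (EPB42) and ankyrin (ANK1). Young circulating red cells keep some of these transcripts, so blood in any tissue can bring them. Levels are FPKM, fragments scaled by transcript length and by the mapped total, as the authors deposited them, so levels of different genes can be set side by side. No read depth comes with them. Changes are log2 differences, KO minus WT, from limma on log2(FPKM + 1) with the 2 libraries of an animal averaged, so each newborn test had 2 against 2 animals. They are given relative to the median change of all genes tested, while the Benjamini-Hochberg adjusted p tests the change before that subtraction. A gene passed at an adjusted p under 0.05 over all genes tested. In bulk tissue, fewer cells of a type and less RNA per cell cannot be told apart.

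The erythroid genes stood higher in the livers of the KO animals on average, and none of the 8 passed the test. The ratio of the KO mean to the WT mean ranged from 2.66 for FECH to 9.32 for GATA1. The gap between animals of 1 genotype was of the same order: KO3 exceeded KO2 by 2.68-fold (ALAS2) to 9.41-fold (TFRC), and WT2 exceeded WT3 by 2.27-fold (EPB42) to 8.45-fold (KLF1). KO3 was the highest and WT3 the lowest of the 4 animals for all 8 genes, an order that 9.57% of the 12207 genes tested in liver also had. KO2 and WT2 lay close together, with KO2 to WT2 ratios from 0.638 (FECH) to 2.24 (GATA1), above 1 for 5 of the 8 genes. Those 5, with both KO animals above both WT animals, were ALAS2, EPB42, ANK1, KLF1 and GATA1, and 15.8% of all genes tested had that arrangement. These ratios and orders use FPKM as deposited, with no all-gene median taken out. On the log2 scale, less the WT mean, that median was −0.392 in KO2, −0.023 in KO3 and WT2, and 0.023 in WT3. KO2 to WT2 ratios near 1 thus depend in part on a lower level of KO2 over all genes.

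ALAS2, the erythroid form of the first and rate-limiting enzyme of heme synthesis, was the most abundant of the 8 in liver. Its 2 libraries gave 186 and 199 FPKM in KO2, 507 and 526 in KO3, 108 and 114 in WT2, and 39.3 and 37.0 in WT3. Both KO animals exceeded both WT animals, and each pair of libraries agreed closely beside the gaps between animals. The change was 2.45 (SE 0.60, limma adjusted p = 0.11). FECH, ferrochelatase, which inserts iron into protoporphyrin in the last step, was at 14.9 and 16.5 FPKM in KO2, 78.0 and 77.8 in KO3, 24.6 and 24.6 in WT2, and 10.9 and 10.3 in WT3. Here only KO3 stood apart, as KO2 lay between the WT animals. FECH had the smallest change of the 8, at 1.27 (SE 0.70, limma adjusted p = 0.50), and without KO3 the change before subtraction went from 1.08 to −0.045.

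SLC4A1 encodes band 3, the chloride-bicarbonate exchanger of the red cell membrane. Its liver libraries were at 43.9 and 44.4 FPKM in KO2, 164 and 166 in KO3, 47.5 and 46.9 in WT2, and 11.2 and 10.1 in WT3. KO2 and WT2 were nearly equal, and the groups overlapped (change 2.06, SE 0.74, limma adjusted p = 0.27). EPB42, protein 4.2, which ties band 3 to the membrane skeleton, was at 8.86 and 9.57 FPKM in KO2, 27.9 and 32.7 in KO3, 5.66 and 5.85 in WT2, and 2.57 and 2.50 in WT3. Its groups did not overlap (change 2.06, SE 0.60, limma adjusted p = 0.18). ANK1, ankyrin, which links band 3 to spectrin, was at 7.09 and 7.01 FPKM in KO2, 28.7 and 29.3 in KO3, 5.77 and 5.78 in WT2, and 1.16 and 1.17 in WT3. KO2 and WT2 were again close, although KO2 was the higher (change 2.21, SE 0.70, limma adjusted p = 0.21).

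KLF1 and GATA1, the transcription factors that drive erythroid genes, had the largest changes of the 8. KLF1 was at 8.98 and 8.61 FPKM in KO2, 44.6 and 41.4 in KO3, 5.34 and 6.50 in WT2, and 0.78 and 0.62 in WT3. WT3 was nearly without the transcript, and KO3 exceeded it 61.4-fold. The change was 2.79 (SE 0.78, limma adjusted p = 0.16). GATA1 was at 6.92 and 8.44 FPKM in KO2, 30.5 and 36.2 in KO3, 2.89 and 3.98 in WT2, and 1.32 and 0.61 in WT3. The 2 libraries of WT3 differed 2.18-fold, the widest gap between repeat libraries for any of the 8 genes in liver. The groups still did not overlap (change 2.75, SE 0.67, limma adjusted p = 0.11). TFRC, which also serves every dividing cell, was at 11.7 and 12.2 FPKM in KO2, 116 and 108 in KO3, 14.2 and 14.3 in WT2, and 3.78 and 3.80 in WT3. KO3 stood far above the rest, and KO2 was below WT2 (change 2.35, SE 0.89, limma adjusted p = 0.28).

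**Figure D1:**
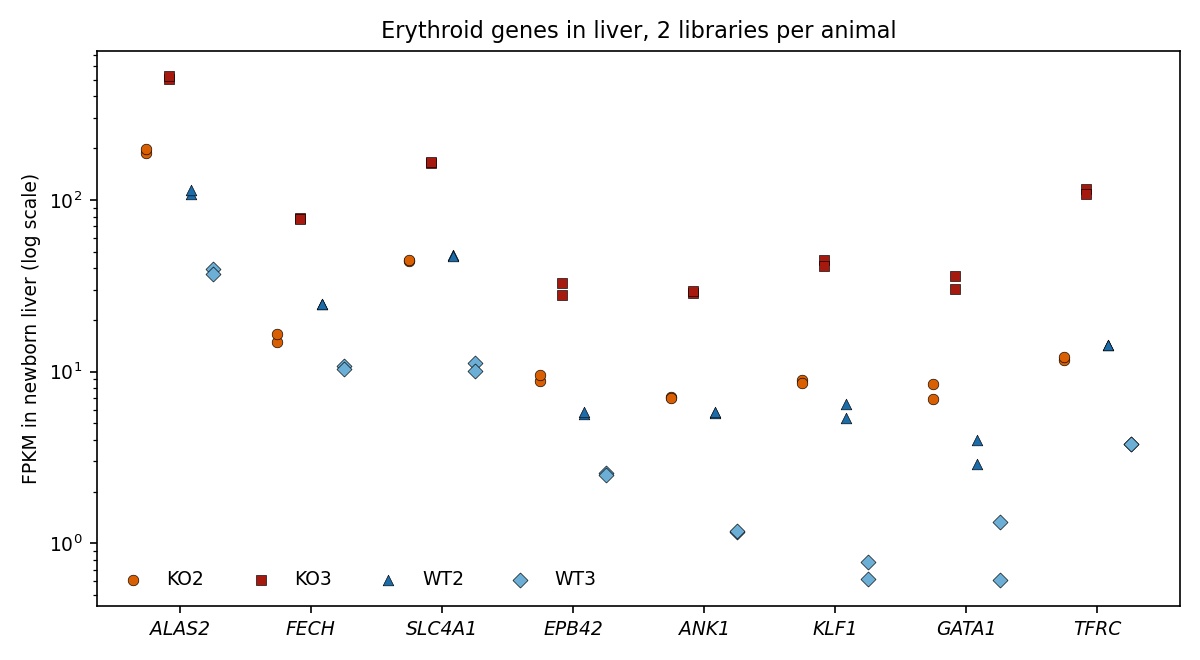
FPKM of the 8 genes in newborn liver, on a log scale, with 1 point per library and 2 libraries per animal. KO3 (red squares) is the highest and WT3 (light blue diamonds) the lowest for each gene, from 526 FPKM of ALAS2 in KO3 to 0.61 of GATA1 in WT3, while KO2 and WT2 lie near each other.

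Over the liver comparison, 0 of the 8 genes passed, where 1.1% of all genes tested did (0.262% higher and 0.836% lower in KO). At an unadjusted p under 0.05, 7 of the 8 were higher in KO, with FECH the exception, against 4.7% of all genes. The median change of the 8 before subtraction was 2.09, and that of all genes was −0.19. With 2 animals on each side, the smallest p that an exact permutation test allows is 0.33. Leaving out any 1 animal moved the changes, which before subtraction ran from 1.08 (FECH) to 2.60 (KLF1) with all 4, and each such fit assumes that the lone animal left in a group varies like the others. Without KO3 they ran from −0.045 (FECH) to 1.57 (GATA1), with TFRC at 0.60 and SLC4A1 at 0.93, and without WT3 from 0.50 (FECH) to 1.97 (GATA1), with SLC4A1 at 0.85 and KLF1 at 1.59. They were larger without KO2, from 2.20 (FECH) to 3.73 (TFRC), and without WT2, from 1.65 (FECH) to 3.61 (KLF1). None of the 8 passed without KO2, KO3 or WT3. Without WT2, 6 passed (ALAS2, SLC4A1, ANK1, KLF1, GATA1 and TFRC), with limma adjusted p from 0.00014 (ALAS2) to 0.022 (ANK1), where 2.77% of all genes did. A fit of all 7 tissues with a shared spread called 3 (EPB42, KLF1 and GATA1), beside 4.13% of all genes. The animal as a correlated unit called 1 (ALAS2), beside 3.52%, and taking libraries as replicates, which counts each animal more than once, called 5, beside 29.0%.

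The proportions of the 8 transcripts to each other were compared within each liver, by taking each gene's log2 FPKM less the mean of the 8 in that animal. These proportions were a measure added after the data were seen, and they carry no test. FECH made up less of the set in the KO animals, at −0.11 and 0.07 in KO2 and KO3 against 0.85 and 1.53 in WT2 and WT3. SLC4A1 was also lower in both, at 1.38 and 1.15 against 1.78 and 1.54. GATA1 took more of the set in both KO animals, at −1.15 and −1.16 against −1.997 and −1.93, as did KLF1, at −0.95 and −0.79 against −1.21 and −2.39. ALAS2, EPB42, ANK1 and TFRC overlapped between genotypes. The values of an animal sum to 0 over the 8, so a lower FECH makes the others higher, and the measure has no counterpart over all genes. The geometric mean of the 8, which sets the level taken out here, was 17 FPKM in KO2, 74.4 in KO3, 13.7 in WT2 and 3.67 in WT3. FECH in WT3 liver, at 10.6 FPKM, was below WT3 brain (10.9), thymus (12.4) and kidney (12.5). It was above WT3 muscle (9.60), heart (8.30) and lung (6.91). The part of cells outside the erythroid lineage in the FECH share was not tested. KLF1 and GATA1 were low in WT3 liver, at 0.70 and 0.97 FPKM.

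**Figure D2:**
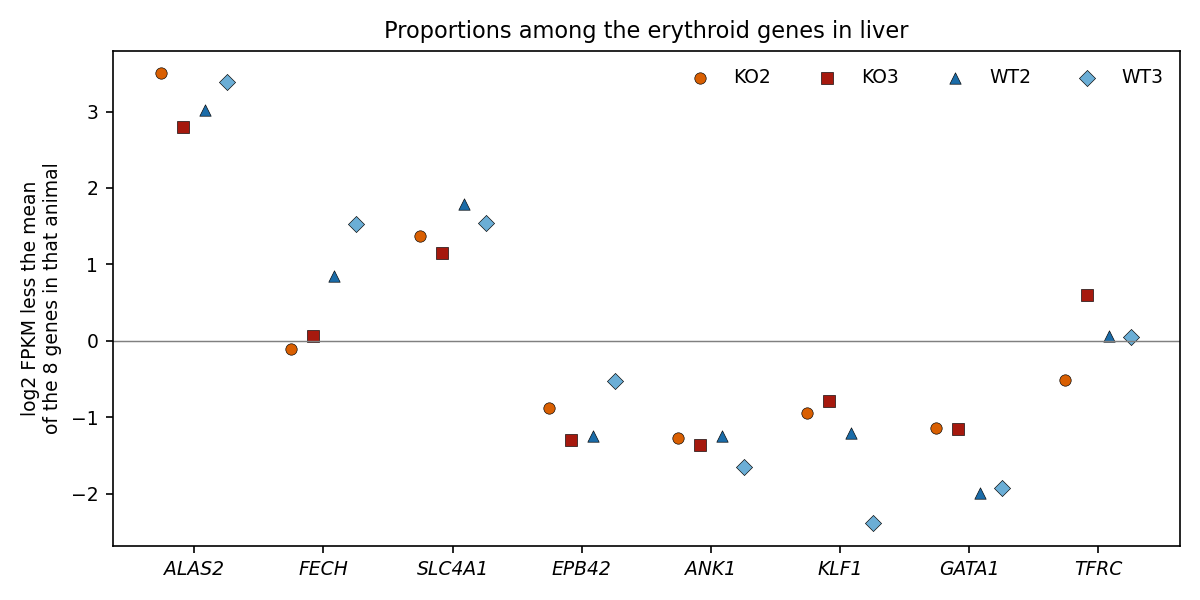
Log2 FPKM of each gene less the mean of the 8 genes in the same liver, 1 point per animal (mean of 2 libraries). FECH and SLC4A1 lie lower and GATA1 and KLF1 higher in both KO animals than in both WT animals, with FECH at −0.11 and 0.07 against 0.85 and 1.53.

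Direct ratios were also taken. There were 25.1 ALAS2 transcripts per GATA1 transcript, by FPKM, in KO2 and 15.5 in KO3, against 32.4 in WT2 and 39.5 in WT3. The ratio of ALAS2 to FECH was 12.3 in KO2 and 6.64 in KO3, against 4.52 in WT2 and 3.61 in WT3. ALAS2 can also be set against ALAS1, the form of the same enzyme that hepatocytes use: the ratio was 9.19 in KO2, 65.0 in KO3, 10.9 in WT2 and 1.13 in WT3. In WT3 liver the 2 forms were thus close to equal, while KO2 and WT2 had similar excesses of the erythroid form. ALAS1 itself was at 20.96 FPKM in KO2, 7.96 in KO3, 10.2 in WT2 and 33.65 in WT3. The ratios thus reflect differences in both genes.

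Globin transcripts in the same livers set the 8 genes beside the product they serve. HBZ, the embryonic zeta globin, stood at 300.2 FPKM in KO2, 546 in KO3, 7.34 in WT2 and 2.51 in WT3, and it rose by 6.43 (SE 0.54, limma adjusted p = 0.00057). AHSP, the chaperone of free alpha globin, stood at 284, 263, 41.8 and 16.8 FPKM in the same order and rose by 3.51 (SE 0.50, limma adjusted p = 0.011). HBB, the adult beta globin, stood at 871, 428, 4172 and 3186 FPKM, a fall of −2.39 (SE 0.39, limma adjusted p = 0.012). For each ALAS2 transcript there were 4.52 HBB transcripts in KO2 and 0.828 in KO3, but 37.5 in WT2 and 83.5 in WT3. The HBZ to ALAS2 ratio was 1.56 and 1.06 in KO2 and KO3 and 0.0659 and 0.0658 in WT2 and WT3. KO2 to WT2 ratios, from 0.638 to 2.24 for the 8 genes, were 40.9 for HBZ, 6.78 for AHSP and 0.209 for HBB. HBE1 also differed more, at 9.85 FPKM in KO2 and 1.29 in WT2. For the other tested globins, HBM and HBQ1, KO2 and WT2 lay closer by fold than for HBE1. HBM was at 431 FPKM in KO2, 997.5 in KO3, 238 in WT2 and 37.2 in WT3. HBQ1 was at 8.36, 16.1, 3.59 and 0.65 FPKM in the same order.

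The rest of the pathway is described from lists of genes, with counts past the test and the list's median beside the all-gene median of −0.19, both before subtraction. Of the 7 other heme synthesis enzymes, 0 passed, and the median was 0.86. CPOX, a late mitochondrial step, was at 21.8, 90.8, 15.6 and 17.9 FPKM in KO2, KO3, WT2 and WT3 (change 1.56, limma adjusted p = 0.34), and UROS, which closes the porphyrin ring, was at 19.2, 43.8, 14.0 and 9.38. ALAD, the second enzyme, went the other way, at 6.43, 25.8, 28.2 and 57.2 FPKM (change −1.36, limma adjusted p = 0.29). Of 10 tested genes of heme and iron transport, 0 passed, with a median of 0.25. SLC25A37, the mitoferrin that brings iron into erythroid mitochondria, was at 16.7, 61.3, 16.5 and 3.60 FPKM. STEAP3, the endosomal ferrireductase, was lower in both KO animals, at 2.19, 6.19, 9.74 and 11.4 FPKM (limma adjusted p = 0.28).

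Among 16 tested genes of the red cell membrane outside the 8, 0 passed, the median was 1.70, and 14 had KO3 highest and WT3 lowest. ICAM4, an erythroid adhesion molecule, came nearest, at 10.3, 28.7, 3.02 and 1.06 FPKM (change 2.87, SE 0.58, limma adjusted p = 0.06). ACHE, TSPO2 and DMTN also had both KO animals above both WT animals, with adjusted p from 0.10 to 0.20. ICAM4 and ACHE were not limited to liver. In KO2, KO3, WT2 and WT3, ICAM4 was at 52.8, 11.8, 12.9 and 17.4 FPKM in lung. In heart it was at 28.6, 18.4, 8.72 and 9.54, while in kidney it was lower. ACHE was at 17.5, 7.84, 4.75 and 8.89 FPKM in thymus. Of 12 tested erythroid regulators, 0 passed, the median was 1.18, and 10 had the same order of animals. GFI1B, a repressor that acts with GATA1, was at 5.24, 13.0, 2.04 and 0.41 FPKM, and NFE2, a globin gene activator, was at 17.2, 59.98, 11.01 and 2.86. HEMGN, a nuclear protein of erythroid cells, was at 16.1, 47.5, 12.0 and 2.54 FPKM. GATA2, which precedes GATA1 in the lineage, did not follow this order: it was highest in KO2, at 5.09 FPKM, against 0.89 in KO3, 0.44 in WT2 and 0.24 in WT3 (limma adjusted p = 0.31).

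Of AHSP and the 5 globin genes tested, 2 were called higher (HBZ, AHSP) and 1 lower (HBB), with a median of 3.05. The alpha, gamma and delta globins (HBA1, HBA2, HBG1, HBG2 and HBD) were not analysed here, so these values do not give the globin total. HBE1, the embryonic epsilon globin, was at 9.85 FPKM in KO2, 301 in KO3, 1.29 in WT2 and 0.77 in WT3 (limma adjusted p = 0.08). Of 13 late erythroid enzymes, 0 passed, with a median of 0.87 and 9 of the 13 higher by the fitted change. PRDX2, an abundant red cell peroxidase, was at 224, 460, 104 and 55.2 FPKM (change 2.26, limma adjusted p = 0.08). BPGM, which makes the ligand that lowers the oxygen affinity of hemoglobin, was at 27.3, 81.2, 21.8 and 7.48 FPKM. ALOX15, a lipoxygenase of maturing reticulocytes, was at 43.3, 182, 23.7 and 10.9, and TRIM10 was at 3.67, 12.1, 2.40 and 0.67. The 4 that were lower were CA1, CAT, FAXDC2 and SELENBP1. SELENBP1, named as the one with both KO animals below both WT animals, was at 25.4, 25.4, 30.1 and 54.1 FPKM (limma adjusted p = 0.55).

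Cell cycle genes and markers of other cells of the liver moved with the animals too. Their part in the results for the 8 genes was not tested. The cell cycle list does not separate dividing erythroid precursors from other dividing cells. All 18 cell cycle genes tested were higher in KO by the fitted change, 0 of them past the test, with a median of 1.14. Their summed FPKM was 68.9 in KO2, 281 in KO3, 82.6 in WT2 and 38.0 in WT3, the same order of KO3 and WT3 as for the 8, and 15 of the 18 had KO3 highest and WT3 lowest. RRM2, a ribonucleotide reductase subunit, was at 13.3, 50.8, 10.95 and 2.32 FPKM, and the proliferation marker MKI67 was at 4.13, 18.2, 4.45 and 0.90. Granulocyte precursor genes, blood formation of another kind, had a different order: 0 of 8 passed, the median was −0.05, and the sums were 100.3 in KO2, 293 in KO3, 446 in WT2 and 33.3 in WT3. KO3 was highest and WT3 lowest for 0 of the 8 granulocyte genes tested.

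A list of 14 macrophage genes was chosen for the cells that nurse erythroid precursors. It does not separate these from other macrophages. None of the 14 was higher in KO liver by the fitted change and 2 fell, with a median of −2.52. The list's median was below 0 in the other 6 tissues too, from −0.26 in lung to −1.38 in muscle. MARCO, a scavenger receptor, was at 0.93, 12.0, 96.5 and 90.0 FPKM in KO2, KO3, WT2 and WT3, a fall of −4.04 (SE 0.74, limma adjusted p = 0.025). CD163, the receptor for hemoglobin bound to haptoglobin, was at 0.59, 8.07, 61.7 and 33.6, a fall of −3.43 (SE 0.73, limma adjusted p = 0.045). The summed FPKM of this list was 71.2 and 369 in KO2 and KO3 against 1208 and 1119 in WT2 and WT3, so in these genes WT2 and WT3 were alike where the 8 erythroid genes differed between them.

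Hepatocyte markers were abundant in every liver, with ALB between 15840 and 33180 FPKM, while TF, the transferrin gene, was listed at 0.19 FPKM or less and was not tested. Of 16 tested hepatocyte genes, 4 fell and 0 rose, with a median of −1.62: TAT, G6PC, CYP2E1 and FGA. TAT, a glucocorticoid-induced enzyme of tyrosine breakdown, was at 21.7, 9.54, 214 and 256 FPKM, a fall of −3.74 (SE 0.49, limma adjusted p = 0.0047). The summed FPKM of the list was 52750 in KO2, 77910 in KO3, 83580 in WT2 and 80670 in WT3. HAMP encodes hepcidin, the liver hormone that holds back iron release. It was at 1168 FPKM in KO2, 13.0 in KO3, 1863 in WT2 and 963 in WT3 (limma adjusted p = 0.30). HAMP was lowest in KO3, with the most of the 8 erythroid transcripts, and next lowest in WT3, with the least. EPO, the erythropoietin gene, which the fetal liver expresses, was at 1.23, 4.32, 0.28 and 0.13 FPKM (change 1.69, SE 0.52, limma adjusted p = 0.21). Among 14 tested genes regulated by iron or hypoxia, 1 rose and 0 fell, with a median of 0.34. The gene that rose was NDRG1, induced by hypoxia and by iron loss, at 51.6, 86.7, 14.99 and 4.48 FPKM (change 3.05, SE 0.58, limma adjusted p = 0.045). VEGFA was at 70.7, 109, 28.4 and 40.3 FPKM (limma adjusted p = 0.21).

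In liver, 5 of 9 megakaryocyte and platelet genes and 3 of 8 mast cell and eosinophil genes reached the level tested. KO3 was highest and WT3 lowest for 3 of those 5 and 2 of those 3, beside 9.57% of all genes tested. Of 5 tested megakaryocyte and platelet genes 0 passed, with a median of 0.67 and summed FPKM of 17.6, 28.9, 20.4 and 6.35. TUBB1, the platelet tubulin, was at 1.99, 4.17, 1.12 and 0.25 FPKM. Of 3 tested mast cell and eosinophil genes 0 passed, with a median of 0.48, sums of 6.15, 38.6, 14.9 and 4.26, and PRG2, the eosinophil major basic protein, at 4.57, 30.97, 9.995 and 0.77 FPKM. These lineages share GATA1 with the erythroid one, and their part in its level was not tested.

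**Figure D3:**
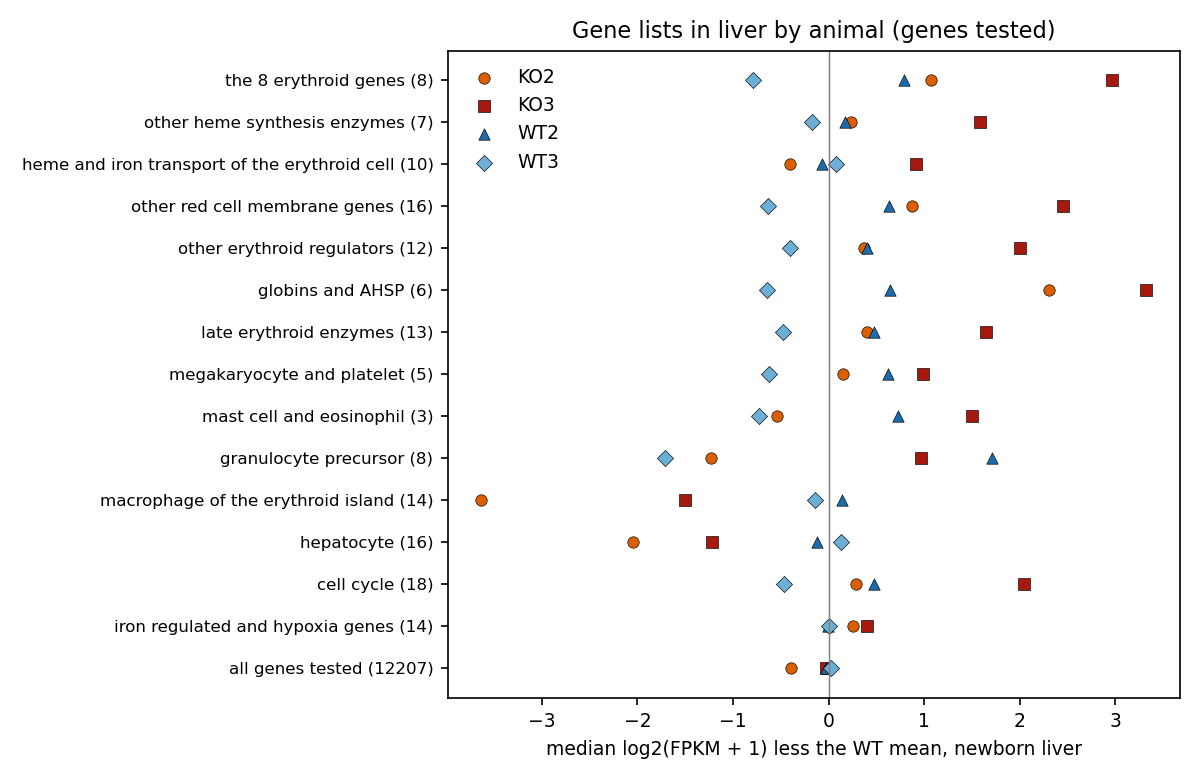
Median log2(FPKM + 1) of each gene list in newborn liver, per animal, less the mean of WT2 and WT3, over the genes tested (their number in brackets). The 8 erythroid genes lie at 1.07 in KO2, 2.97 in KO3, 0.79 in WT2 and −0.79 in WT3. The macrophage list (labelled as of the erythroid island) and the hepatocyte list lie below 0 in both KO animals.

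The level of the 8 genes across the 7 newborn tissues was then compared, over the 4 animals. Liver was set against the mean of each animal's other 6 tissues, which tests whether the transcripts stand above what those tissues hold. Of the 8 genes 6 rose, where 66.4% of all 15038 genes tested passed and 12.9% were higher in liver, and the median of all genes was −0.46. SLC4A1 was 3.91 higher in liver (SE 0.43, limma adjusted p = 0.00019), ALAS2 3.14 (SE 0.33, adjusted p = 0.00017), EPB42 2.95 (SE 0.33, adjusted p = 0.00029), KLF1 2.78 (SE 0.39, adjusted p = 0.00093), GATA1 2.75 (SE 0.36, adjusted p = 0.00065) and FECH 2.01 (SE 0.31, adjusted p = 0.0027). ANK1, at 1.03 (SE 0.31, limma adjusted p = 0.14), and TFRC, at 0.65 (SE 0.36, adjusted p = 0.65), did not pass. ANK1 passed without WT3 (limma adjusted p = 0.041), with either rescaling of the libraries (0.028 and 0.048) and with a pseudocount of 0.1 (0.047). With no filter on low levels, FECH, KLF1 and GATA1 were no longer past the threshold (0.055 to 0.086), and a filter at 5 FPKM left 3 called of the 5 tested.

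The excess of liver over the other tissues differed between animals. On the log2 scale and before subtraction, ALAS2 exceeded the other tissues by 2.96 in KO2, 3.87 in KO3, 2.49 in WT2 and 1.39 in WT3. KLF1 did so by 2.53, 4.21, 2.06 and 0.47 in the same order, and GATA1 by 2.57, 4.17, 1.78 and 0.61. For TFRC the difference was 0.26 in KO2 and 2.50 in KO3 but −0.34 in WT2 and −1.65 in WT3. WT3 had the smallest difference for each of the 8 genes, and KO3 the largest. Liver was the highest tissue in all 4 animals for EPB42 and GATA1, in 3 animals for ALAS2, FECH, SLC4A1 and KLF1, in 1 for TFRC and in none for ANK1.

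Among tissues, ALAS2 averaged 215 ± 211 FPKM in liver (SD, n = 4 animals), 64.1 ± 57.4 in lung, 61.2 ± 23.2 in heart, 32.5 ± 24.1 in thymus, 17.7 ± 14.8 in muscle, 16.0 ± 6.5 in kidney and 5.87 ± 3.39 in brain. The ranges of neighbours in this order overlapped throughout. FECH averaged 32.2 ± 31 FPKM in liver and 6.56 to 10.1 in the other 6 tissues, an almost level spread for an enzyme that all cells need. SLC4A1 averaged 66.8 ± 67.6 FPKM in liver, then 7.27 ± 4.47 in kidney, where acid-secreting intercalated cells make a shorter form of it, then 6.69 in thymus, 5.48 in lung, 4.11 in heart, 1.71 in muscle and 0.53 in brain. EPB42 averaged 12.0 ± 12.5 FPKM in liver, from 1.10 to 1.42 in lung, heart and thymus, and under 0.42 in kidney, muscle and brain.

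KLF1 averaged 14.6 ± 19.2 FPKM in liver, between 1.29 and 1.40 in lung, thymus and heart, and 0.49 or less in muscle, kidney and brain. GATA1 averaged 11.4 ± 14.9 FPKM in liver, 1.28 in thymus, 1.04 in lung, and 0.43 or less in heart, kidney, muscle and brain, with both WT brains listed at 0. Muscle and brain were the only neighbours in the orders of EPB42 and GATA1 whose ranges did not overlap. ANK1 had another order, led by muscle at 56.4 ± 17.9 FPKM and heart at 26.6 ± 11.7, then liver at 10.7 ± 12.4, brain at 3.16, and thymus, lung and kidney at 0.88 or less. Striated muscle makes short ankyrin forms of the sarcoplasmic reticulum from this gene, which FPKM per gene does not separate from the red cell form. TFRC was spread evenly, from 35.5 ± 51.3 FPKM in liver to 14.3 ± 11 in heart, with all neighbours overlapping.

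**Figure D4:**
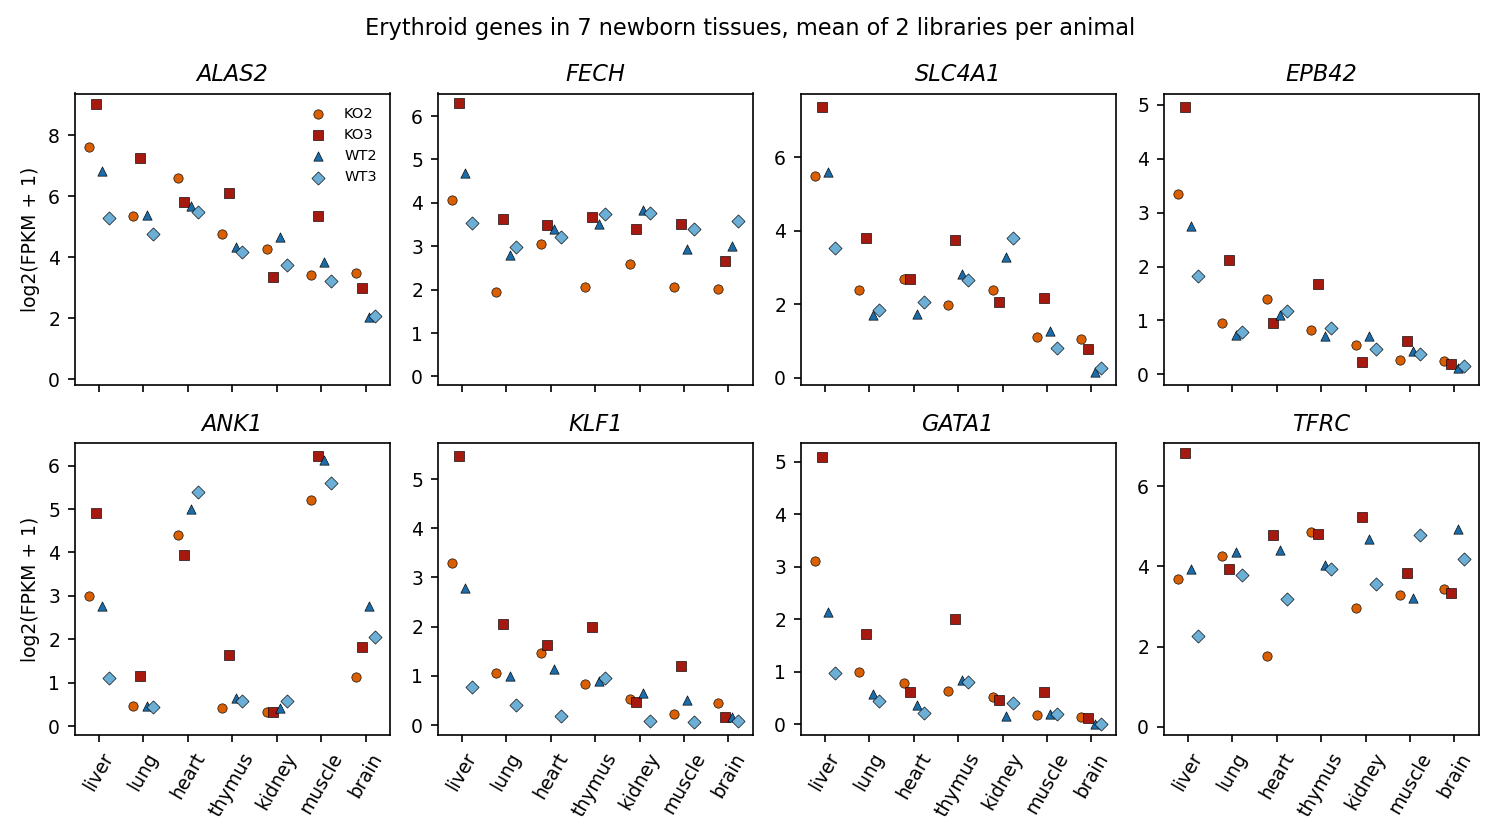
Log2(FPKM + 1) of each gene in the 7 newborn tissues, 1 point per animal (mean of 2 libraries). Liver is the highest tissue for most genes and shows the widest spread between animals, while ANK1 is highest in muscle (mean 56.4 FPKM) and TFRC is about level.

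The likeness of the genes over the 28 combinations of animal and tissue is a description, since tissues of 1 animal share that animal and its blood. Among 13527 genes with a mean of 1 FPKM or more, the 10 most like ALAS2 by Pearson's r of log2(FPKM + 1) included IFIT1B (0.94), HBM (0.93), NFE2 (0.91), TRIM58 (0.89), EPB42 (0.89), AHSP (0.88), KLF1 (0.87), ALOX15 (0.86) and TSPO2 (0.86). KLF1 had 5 of the other 7 genes among its 50 most like, and ALAS2, FECH, SLC4A1, EPB42 and GATA1 each had 4. ANK1 and TFRC had 0. Without the 4 livers the r with ALAS2 was 0.92 for EPB42, 0.84 for KLF1, 0.72 for GATA1 and 0.71 for SLC4A1, but 0.16 for FECH, 0.06 for ANK1 and −0.16 for TFRC. Outside the liver, then, the first 4 went with ALAS2 from tissue to tissue and FECH, ANK1 and TFRC had patterns of their own.

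KO was compared with WT in the other 6 tissues to see whether the liver values recurred there. None of the 8 genes passed in any of them. Of all genes tested, 0.0% passed in brain, 2.32% in muscle, 0.00772% in thymus, 0.18% in heart, 0.0% in lung and 5.78% in kidney. In brain and lung, where limma called 0 genes at the adjusted p, 1701 and 963 genes had an unadjusted p under 0.05. Between 4 (brain, kidney) and 7 (thymus, heart, lung) of the 8 genes passed the level filter, and muscle had 5.

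In lung, 7 of the 8 genes were highest in KO3, and TFRC was highest in WT2. The 7 include ANK1, which was below the level tested there. ALAS2 was at 39.7 FPKM in KO2, 150 in KO3, 41.0 in WT2 and 26.2 in WT3 (change 1.38, SE 0.67, limma adjusted p = 0.78). SLC4A1 in lung was at 4.25 and 12.8 in the KO pair and 2.26 and 2.56 in the WT pair (change 1.49, SE 0.56, limma adjusted p = 0.69). GATA1 in lung was at 1.01 and 2.32 against 0.49 and 0.37, and KLF1 at 1.09 and 3.18 against 1.01 and 0.33. The thymus had the same high KO3, with ALAS2 at 25.7 and 68.2 FPKM in the KO pair and 19.0 and 16.9 in the WT pair, and GATA1 at 0.55 and 3.02 against 0.79 and 0.74. Muscle did too, with ALAS2 at 9.61 and 39.7 FPKM against 13.2 and 8.23. KO2, by contrast, was the lowest animal for 5 of the 8 genes in thymus and for 4 in muscle. The share of all genes with these orders was not taken in lung, thymus or muscle. In heart the higher ALAS2 value was that of KO2, at 95.3 FPKM against 55.1 in KO3, 50.6 in WT2 and 43.7 in WT3 (change 0.67, SE 0.38, limma adjusted p = 0.72).

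In brain, ALAS2 was low and above WT in both KO animals, at 10.2 and 7.01 FPKM against 3.13 and 3.18 (change 1.39, SE 0.31, limma adjusted p = 0.39). Without KO3, which leaves KO2 alone with the spread taken from the WT animals, it passed (limma adjusted p = 0.031), as did 17.5% of all genes. TFRC, which brain capillaries and neurons express, went the other way there, at 9.76 and 9.05 FPKM in the KO pair and 29.7 and 17.4 in the WT pair (change −0.99, SE 0.36, limma adjusted p = 0.39). FECH in brain was at 3.05 and 5.27 FPKM against 6.97 and 10.9 (change −0.75, SE 0.38, limma adjusted p = 0.39). The thymus was the only tissue outside the liver where TFRC had a change above 1, with 28.2 and 27.1 FPKM in the KO pair and 15.4 and 14.4 in the WT pair (change 1.06, SE 0.42, limma adjusted p = 0.70). ANK1 in heart was at 20.3 and 14.4 FPKM in the KO pair and 31.2 and 40.7 in the WT pair (change −0.96, SE 0.39, limma adjusted p = 0.41). In the same hearts ACTA1, the skeletal actin that newborn hearts also express, fell from 934 and 2152 FPKM in WT to 15.3 and 104 in KO (limma adjusted p = 0.0074), and its part in the ANK1 value was not tested. ANK1 in muscle was at 35.8 and 73.6 FPKM in the KO pair and 68.8 and 47.4 in the WT pair, with a change of −0.15 (limma adjusted p = 0.95) that turned positive, at 0.18, with quantile normalisation.

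In kidney, SLC4A1 was at 4.20 FPKM in KO2, 3.18 in KO3, 8.84 in WT2 and 12.9 in WT3. Both KO kidneys were below both WT kidneys, and the change was −1.29 (SE 0.33, limma adjusted p = 0.0503), just short of the threshold. It passed with the animal as a correlated unit over its libraries (limma adjusted p = 0.012), as did 11.2% of all genes. ALAS2 in the same kidneys was at 18.1 and 9.28 FPKM in KO2 and KO3, and at 24.03 and 12.4 in WT2 and WT3, with overlapping groups (limma adjusted p = 0.65). The kidney form of SLC4A1 belongs to intercalated cells, and 10 markers of these cells were tested: 2 fell and 0 rose, where 4.76% of all genes fell. SLC26A4, pendrin, was at 0.13 and 0.20 FPKM in the KO pair and 5.61 and 2.09 in the WT pair and fell by 1.96 before subtraction of the all-gene median (limma adjusted p = 0.031). RHCG, an ammonia channel, was at 14.8 and 10.8 against 30.8 and 29.5 and fell by 1.19 before subtraction (limma adjusted p = 0.049). The list's median change before subtraction was −1.20, beside −0.04 for all genes, and its summed FPKM was 136 and 123 in the KO pair and 334 and 240 in the WT pair. CA2, one of the 10, is also a late erythroid enzyme, and KIT also marks mast cells. The part of these markers in the SLC4A1 value was not tested. FECH in kidney was at 4.99 and 9.53 FPKM in the KO pair and 13.4 and 12.5 in the WT pair (change −0.77, SE 0.35, limma adjusted p = 0.22). Without KO3, which leaves KO2 alone with the spread taken from the WT animals, it passed (limma adjusted p = 0.045), as did 11.8% of all genes.

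**Figure D5:**
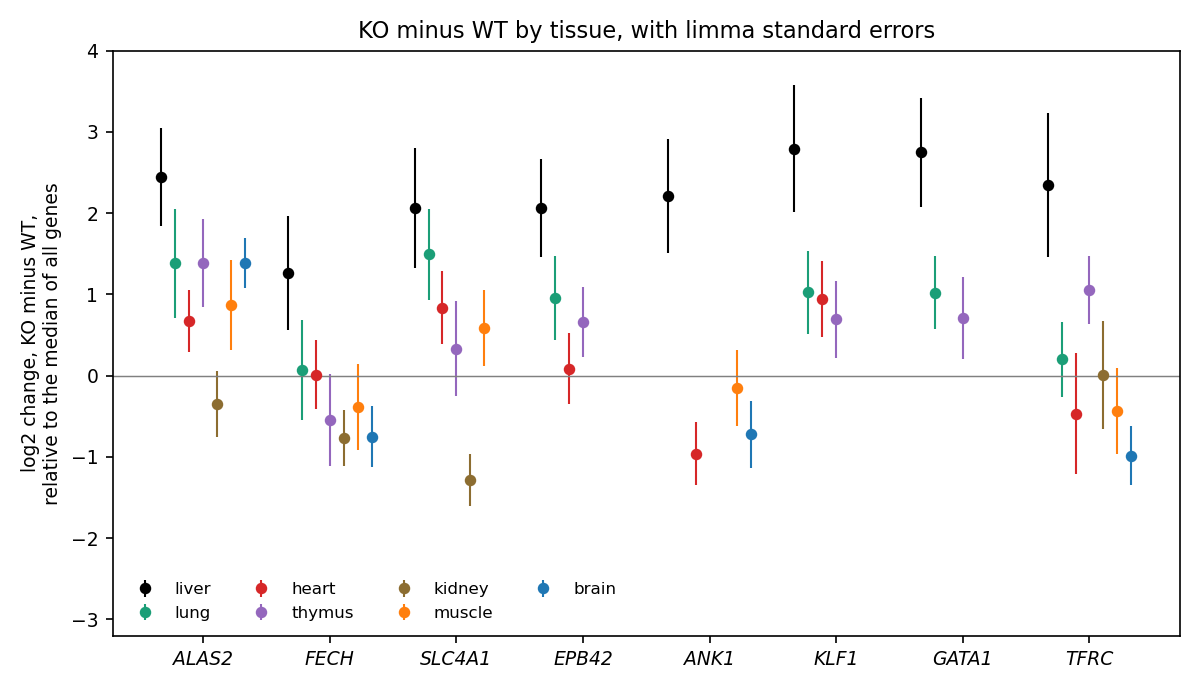
Log2 change, KO minus WT, relative to the median of all genes tested, for each gene in each tissue where it passed the level filter, with limma standard errors (2 KO and 2 WT animals). The liver values (black) lie between 1.27 and 2.79, above those of the other tissues for each gene, and SLC4A1 in kidney lies at −1.29.

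Averaged over the 7 tissues of each animal, 0 of the 8 genes passed, where 0.492% of all genes did. ALAS2 had a change of 1.10 (SE 0.32, limma adjusted p = 0.22), KLF1 of 0.91 (SE 0.28, adjusted p = 0.26) and GATA1 of 0.81 (SE 0.22, adjusted p = 0.21), and FECH of −0.17 (SE 0.38, adjusted p = 0.78). The difference itself, the KO change in liver less the average one of the other 6 tissues, was positive for all 8, from 1.51 for ALAS2 to 2.41 for TFRC. None passed, with limma adjusted p from 0.20 (ANK1) to 0.47 (SLC4A1), and 0.226% of all genes did. Without WT2, which leaves WT3 alone, ANK1 and TFRC passed (limma adjusted p = 0.029 and 0.038), as did 1.04% of all genes.

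The fetal libraries hold no liver, and in them the 8 genes were read in wild-type brain and muscle at gestation months 2 and 4. Nothing states that the 2 libraries of a month are separate fetuses, so the spread these p-values rest on is that between libraries, which may be technical. KLF1, GATA1, EPB42 and SLC4A1 were at 0.51 FPKM or less in each of the 8 libraries, below the level tested. In muscle, TFRC was at 3.04 and 3.25 FPKM in month 2 and at 19.5 and 15.3 in month 4, and it rose by 1.98 (SE 0.20, limma adjusted p = 9.2e-05). FECH was at 2.75 and 2.38 FPKM in month 2 and 5.92 and 4.14 in month 4, and rose by 0.58 (SE 0.23, limma adjusted p = 0.030). The FECH call was lost without either month 2 library (limma adjusted p = 0.14 and 0.25), without the first month 4 library (0.066) and with no level filter (0.20), and the TFRC call with no level filter (0.055).

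In all, 2 of the 4 genes tested in fetal muscle passed, both higher, where 37.9% of all genes passed and 22.3% were higher. ALAS2 in fetal muscle was at 4.67 and 4.98 FPKM in month 2 and 5.64 and 7.07 in month 4 (change 0.17, SE 0.21, limma adjusted p = 0.23). ANK1, at 62.5 and 62.4 FPKM in month 2 and 66.3 and 109 in month 4, did not pass (change 0.28, SE 0.23, limma adjusted p = 0.15), except without the first month 4 library (adjusted p = 0.0012). In fetal brain 0 of 4 passed, where 4.01% of all genes did. ALAS2 was at 1.26 and 1.21 FPKM in month 2 and 1.75 and 0.91 in month 4. ANK1 was at 1.24 and 1.48 and then 2.35 and 2.57 FPKM (change 0.49, SE 0.24, limma adjusted p = 0.26), and TFRC was at 5.59 and 7.79 and then 8.10 and 6.07.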

How the data were processed

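Tissue RNA was sequenced on an Illumina HiSeq instrument from TruSeq libraries, per the labels' protocols. CASAVA, HISAT 0.1.6 and Cufflinks 2.0.2 are named in the submitters' processing notes, without role or order. Genome build, annotation and strandedness were not given in the sources used here. The authors deposited FPKM values in a newborn table of 56 libraries and a fetal table of 8, which were tested separately. Depth is unknown: whole reads could not be recovered, so no counting interval is given.

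From these values, the 2 libraries of an animal and tissue were averaged as log2(FPKM + 1). Titles were read as animal and repeat library. The 28 repeat pairs had Pearson r between 0.991 and 0.996 across genes, and 0 pairs were identical. Whether repeats are separate tissue pieces is not stated. Genes with a mean of 1 FPKM or more were fitted with limma 3.58.1 in R 4.3.3 (lmFit, eBayes with trend), each tissue by itself, and p-values were adjusted by Benjamini-Hochberg over all genes tested, with a threshold of 0.05. The fits were tested on simulated data. Log2 changes understate those of low genes. The 8 genes, the gene lists and the tests were chosen with earlier results of these data known. The 8 genes were named in every comparison. From each list the text names up to 4 genes with the smallest p in liver and any past the threshold, plus markers that check a label; a few results are not reported here. The kidney markers, the heart and muscle genes, and HAMP, ALB and TF were chosen for the paragraph they stand in. Alternatives were a pseudocount of 0.1, other level filters (none, 5 FPKM), quantile normalisation, median ratio scaling, each library as a replicate, the animal as a correlated unit over its libraries (statmod 1.5.0), 1 fit of all tissues, a replicate block, and omission of each animal or fetal library in turn. Names of 721 of 11294 genes listed by locus identifier came from a RefSeq gene table, used for names alone.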

Additional observations from a re-analysis of the deposited data

Results flagged for a closer look

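With 4 libraries of 1 genotype and tissue, a single library stood apart from the other 3 in 2 of 112 groups examined, and chance flags about 1 group in 20 where values are independent. These 4 libraries are 2 repeats of each of 2 animals, so that rate does not hold for them. EPB42 in WT heart was 1.03 FPKM in library 1 of WT2, where the other 3 WT heart libraries lay between 1.25 and 1.28. GATA1 in WT kidney was 0.51 FPKM in library 2 of WT3, where the other 3 lay between 0.08 and 0.15.

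Among genes past the level filter in both tissues, in 5 pairs of tissues a gene lay higher in every KO animal than in every WT animal in 1 tissue and lower in every KO animal in the other. These differences were not tested, and the share of all genes with such opposite orders was not taken. In liver alone, 15.8% of all genes tested had both KO animals above both WT animals. The values that follow are log2 changes before subtraction of the all-gene median. For SLC4A1, the heart change (0.78) exceeded the kidney change (−1.33) by 2.11, and the lung change (1.32) exceeded it by 2.65. For ANK1, the liver change (2.02) exceeded the brain change (−0.93) by 2.94 and the heart change (−1.02) by 3.04. For TFRC, the thymus change (0.85) exceeded the brain change (−1.19) by 2.04.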

How the results depend on the processing

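Values here are log2 changes before subtraction of the all-gene median. Over 74 gene results, 742 alternatives kept the direction and side of the threshold, 36 newly passed, 8 no longer passed and 40 changed sign. The number of the 8 genes past the threshold moved as follows. With libraries as replicates it went from 0 to 5 in liver, 4 in brain, 1 in thymus and 2 each in heart, lung and kidney. Of all genes, 29.0%, 31.1%, 11.4%, 12.6%, 16.4% and 36.7% passed there, in the same order. With the animal as a correlated unit it was 1 in liver (3.52% of all genes) and 1 in kidney (11.2%). With 1 fit of all 7 tissues it was 3 in liver (4.13%). For liver against the other tissues (6) it was 3 with no level filter (31.2% of all genes). With the filter at 5 FPKM it was also 3 (66.7%). It was 7 with a pseudocount of 0.1 (61.7%) and with either rescaling (56.1% and 55.4%). For fetal muscle (2) it was 0 with no filter (2.04%) and 1 at 5 FPKM (43.8%). The higher filter left fewer of the genes to test. GATA1 was not tested in liver against the others without KO3, as it fell under the filter. Leaving out an animal gave 0 to 6 in liver, 0 to 1 in brain and in kidney, 0 to 2 for the liver KO change less that of the other tissues and 5 to 7 for liver against the others, and leaving out a library gave 1 to 2 in fetal muscle. The labels do not say whether equal animal numbers mark pairs across genotypes. Over genes, the KO2 less KO3 and WT2 less WT3 differences had correlations between −0.097 and 0.09 by tissue. With 1 such pair of differences per tissue, these values cannot exclude pairing. With the number as a replicate block 0 of the 8 passed in each newborn comparison that was fitted with it. In fetal muscle 2 passed, where 45.4% of all genes did. No replicate block could be fitted for liver against the other tissues.

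Counts over all genes moved more: liver, 134, went from 0 with no level filter to 24 with quantile normalisation, 50 with median ratio scaling, 233 with the replicate block, 338 without WT2, 430 with the animal as a correlated unit, 621 with 1 fit of all tissues and 3545 with libraries as replicates. Over the alternatives brain ranged from 0 to 4168, muscle from 22 to 2768, thymus from 0 to 1484, heart from 0 to 1539, lung from 0 to 2170, kidney from 0 to 5119, the average from 0 to 1018, the difference from 0 to 156, liver against the others from 6141 to 9990, fetal brain from 0 to 1377 and fetal muscle from 574 to 6756.

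Quantile normalisation turned ANK1 in muscle to 0.18, FECH in heart to 0.007 and in lung to 0.11, TFRC in kidney to 0.18, and ALAS2 in fetal brain to −0.041. Median ratio scaling turned FECH in lung to 0.059, TFRC in kidney to 0.091, ALAS2 in fetal brain to −0.017 and TFRC there to −0.005. Leaving out 1 animal moved FECH in liver between −0.045 and 2.20. In muscle ANK1 ran from −0.66 to 0.36, FECH from −1.11 to 0.35, ALAS2 from −0.10 to 1.84 and TFRC from −1.23 to 0.36. In thymus FECH ran from −1.56 to 0.056 and SLC4A1 from −0.76 to 1.01. In heart FECH ran from −0.26 to 0.17, EPB42 from −0.19 to 0.26 and TFRC from −2.03 to 0.99. In lung FECH ran from −0.94 to 0.74 and TFRC from −0.26 to 0.32. In kidney TFRC ran from −1.17 to 1.11 and ALAS2 from −0.84 to 0.064. In the average FECH ran from −0.92 to 0.35, ANK1 from −0.29 to 0.44 and TFRC from −0.48 to 0.73. For liver against the others TFRC ran from −0.37 to 0.75. In fetal brain, leaving out 1 library, ALAS2 ran from −0.23 to 0.30 and TFRC from −0.13 to 0.28. The causes were not tested.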
